A study of Mus musculus with 12 samples.

Results

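GABA-A receptors are the ligand-gated chloride channels through which GABA inhibits neurons, and 7 genes encoding their subunits are described here across hippocampal RNA libraries: Gabra2, Gabra3, Gabra4, Gabra5, Gabrb1, Gabrb2 and Gabrd. They were picked by name as subunit genes that the hippocampus expresses, and all 7 were found among the 23352 genes of the deposited table. The mice were of the C57BL/6J strain. The N40K transgenic mice of the Tg396 line carried a truncated SNRNP70 (U1-70K, a protein of the U1 particle that marks 5' splice sites), driven in neurons by a modified CaMKIIa promoter. Their controls were wild-type littermates without the transgene. Hippocampi were taken at 3 or at 12 months of age, which gave 4 groups of 3 libraries: wild type at 3 months, N40K at 3 months, wild type at 12 months and N40K at 12 months. A single transgenic line was used, so an effect of the truncated protein and an effect of that line's insertion cannot be told apart. CaMKIIa promoters act mainly in excitatory forebrain neurons, whereas the libraries hold RNA of the whole hippocampus. In such bulk RNA, fewer cells of a type and less RNA per cell cannot be told apart.

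Each receptor is a ring of subunits drawn from several families, most often alpha and beta subunits with a gamma or a delta subunit. GABA binds where alpha and beta subunits meet, and the alpha subunit together with the gamma subunit sets the response to benzodiazepines. Receptors with alpha-2 are found at synapses, including those on the axon initial segment of pyramidal neurons. Receptors with alpha-5 are abundant outside synapses on hippocampal pyramidal neurons, and receptors of alpha-4 with delta carry tonic inhibition, above all in dentate granule neurons.

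Levels are given in FPKM (fragments per kilobase of transcript, scaled to the number of mapped fragments), a unit that allows genes of different length to be compared within a library. Differences are given on the log2(FPKM + 1) scale with their standard error (SE), from a limma model fitted across 13945 genes that reached 1 FPKM in at least 3 of the 12 libraries, and adjusted p-values are Benjamini-Hochberg values over all of those genes. A gene is called changed where the adjusted p is under 0.05. All 7 subunit genes passed the filter. Nothing in the labels says how the libraries numbered 1 to 3 in a group relate to animals, so the p-values measure only the spread between these samples.

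The smallest steps of the FPKM values put the depth of the libraries at about 40100000 to 97400000 fragments. The lowest estimated fragment count behind any subunit value was about 847, for Gabrd, if its longest protein-coding transcript in the GENCODE M21 annotation is used. The gene from which the transgene derives, Snrnp70, was at 173 ± 10.5 FPKM in wild type and 392.4 ± 13.1 in N40K at 3 months, and at 122 ± 23.0 and 294.5 ± 31.9 FPKM at 12 months (mean ± SD, n = 3 in each group). Markers of pyramidal neurons (12 of 12 listed) and of dentate granule neurons (10 of 10) were present, whereas 3 of the 6 cerebellar markers passed the filter and Barhl2 stayed under 0.1 FPKM in every library. Choroid plexus RNA varied between the libraries of a group: the 10 listed markers summed to 232 to 6891 FPKM in wild type and 163 to 2066 in N40K at 3 months, and to 1338 to 2712 and 90.9 to 3741 at 12 months. Xist, a transcript of the inactive X chromosome, was at 13.5 to 17.3 FPKM in 3 libraries, all at 3 months (wild type replicates 2 and 3 and N40K replicate 3), and at 0.112 FPKM or less in the others. The other 9 libraries held the Y-linked Ddx3y at 13.9 FPKM or more, and are called the libraries with Ddx3y below. They include all 6 libraries of 12 months, so the ages differ in the sexes they hold. The genotypes at 3 months also held the sexes in different numbers. Values among the libraries with Ddx3y are given beside the age results of Gabrb1, Gabrb2 and Gabrd. The 12-month libraries also carried another series of library numbers, so age and library series cannot be told apart.

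The alpha subunit genes spanned a wide range of levels. Gabra5 was the most abundant of the 7 genes at 65.9 FPKM over the 12 libraries, and its lowest library (58.9 FPKM) lay above the highest library of any other of the 7. Gabra4 (23.5 FPKM) and Gabrb2 (23.1) followed, and then Gabra2 (17.7), Gabrd (14.2), Gabra3 (13.3) and Gabrb1 (9.94). The order among these 6 differed with age: Gabra4 lay above Gabrb2 without overlap in both 3-month groups, and Gabrb2 lay above Gabra4 without overlap in both 12-month groups. Within single groups several neighbours overlapped, such as Gabrb2 and Gabra2 in wild type at 3 months, and Gabra4 and Gabra2 in wild type at 12 months.

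**Figure D1:**
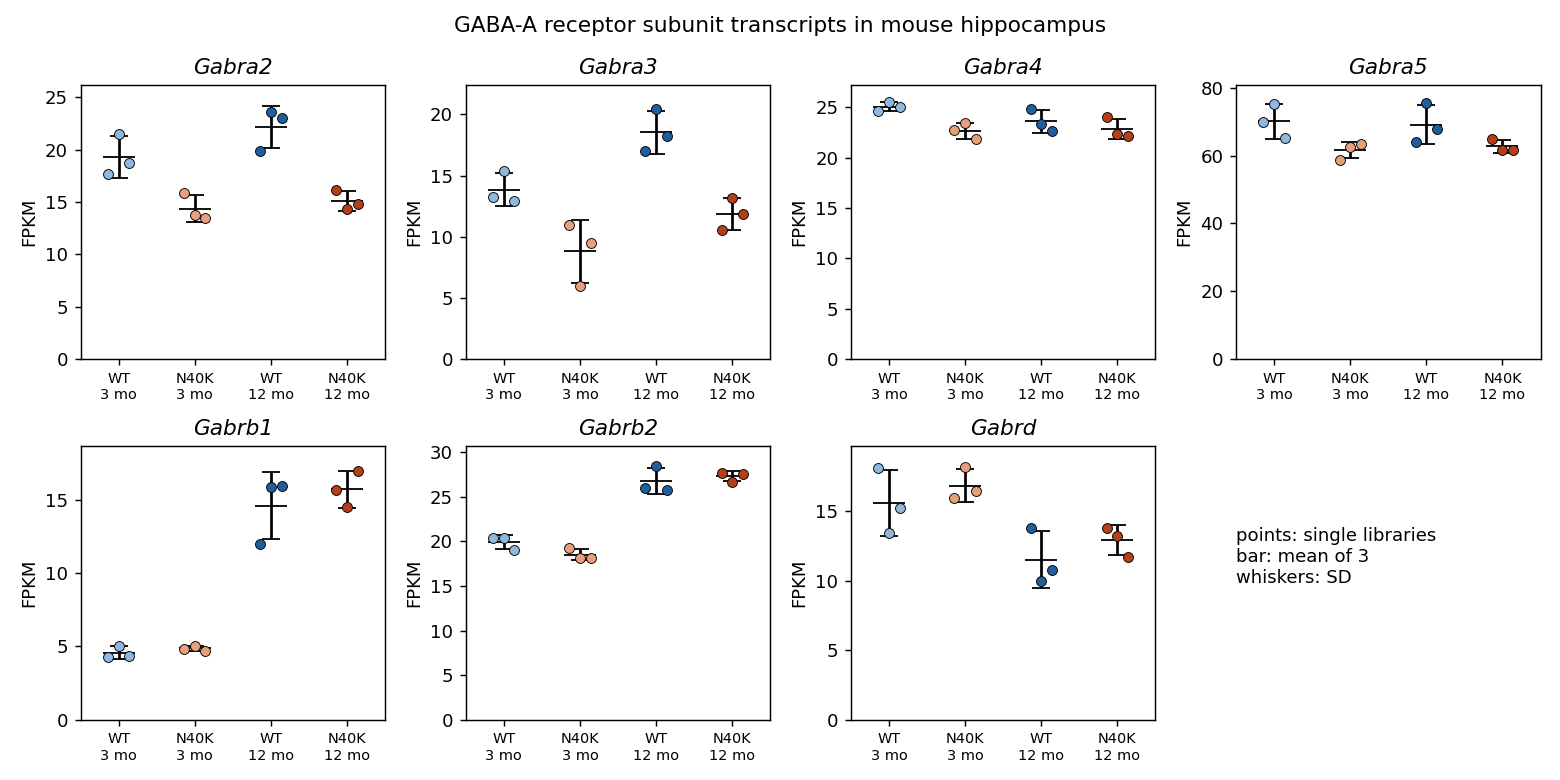
Levels of the 7 subunit genes in FPKM (vertical axes, from 0) in the 4 groups. Points are libraries, the long bar is the mean of 3 and whiskers are the SD. Gabra2 and Gabra3 were lower in N40K without overlap at both ages, while Gabrb1 was near 5 FPKM in the 3-month groups and above 11 FPKM in the 12-month groups.

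Of the 7 genes, 2 fell in N40K hippocampus at 3 months and the same 2, Gabra2 and Gabra3, fell at 12 months. Across all genes tested, 3.49% were called lower at 3 months and 7.71% at 12 months, and in either direction 11.4% and 18.9%. None of the 7 genes was called higher at either age, beside 7.95% and 11.2% of all genes. The median difference over the 7 genes was -0.14 at 3 months and -0.04 at 12 months, against 0.02 and 0.01 over all genes tested. The calls at 3 months were higher for 69.5% of all called genes as the values were deposited, and for 53.5% after median-ratio scaling.

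Gabra2 encodes the alpha-2 subunit. It measured 17.7, 21.5 and 18.7 FPKM in wild type replicates 1 to 3 at 3 months, and 15.9, 13.8 and 13.5 FPKM in N40K. At 12 months it measured 19.9, 23.6 and 23.0 FPKM in wild type and 16.1, 14.3 and 14.8 FPKM in N40K. Every N40K library lay below every wild-type library, at either age and across the ages. The mean fell by 25.6% at 3 months, a log2 difference of -0.40 ± 0.09 (limma adjusted p = 0.0133), and by 32.0% at 12 months, a log2 difference of -0.52 ± 0.09 (limma adjusted p = 0.00254). Averaged over both ages the difference was -0.46 ± 0.06 (limma adjusted p = 3.29e-04), and 6 of 6 N40K libraries were lower.

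The Gabra2 difference at 12 months was called under every setting and with every library left out in turn. At 3 months it was not called without wild type replicate 2 (log2 difference -0.32, limma adjusted p = 0.0573), without N40K replicate 2 (-0.37, 0.0551) or without N40K replicate 3 (-0.36, 0.0568). In the 9 libraries with Ddx3y, which leave 1 wild type library at 3 months, the Gabra2 difference at that age was -0.24 and not called (limma adjusted p = 0.406), and the lone library was assumed to vary like the other groups.

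Gabra3, an X-linked gene, encodes the alpha-3 subunit. Its levels at 3 months were 13.2, 15.4 and 12.9 FPKM in wild type and 11.0, 5.98 and 9.50 FPKM in N40K. At 12 months they were 17.0, 20.4 and 18.2 FPKM in wild type and 10.6, 13.2 and 11.9 FPKM in N40K. Again the genotypes did not overlap at either age, but N40K replicate 2 at 3 months lay well below its group. The mean fell by 36.4% at 3 months and fell by 35.9% at 12 months, with log2 differences of -0.63 ± 0.16 (limma adjusted p = 0.0306) and -0.60 ± 0.16 (limma adjusted p = 0.0258). The average over both ages was -0.62 ± 0.12 (limma adjusted p = 0.0028), with 6 of 6 N40K libraries below the wild type libraries of their age.

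The Gabra3 calls at each age depended on single libraries and on the processing. Without N40K replicate 2 at 3 months the difference was -0.40 (limma adjusted p = 0.0545), and the 3-month call also ended without any 1 of the 3 wild type replicates (limma adjusted p of 0.0658, 0.113 and 0.053) or without N40K replicate 3 (0.0532). With Xist as a covariate Gabra3 differed by -0.59 at 3 months (limma adjusted p = 0.0663), and among libraries with Ddx3y by -0.64 (0.312). With no filter on low values, with each age fitted alone and with the replicate block the 3-month difference was also not called (0.0835, 0.0847 and 0.057). At 12 months the Gabra3 call ended without wild type replicate 2 (limma adjusted p = 0.0886), N40K replicate 1 (0.0982) or N40K replicate 3 (0.0581), with no filter (0.0706) and among libraries with Ddx3y (0.058). The average over both ages was called in each of those settings except the fit of each age alone, which gives no average.

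RefSeq promoter windows (build GRCm38.p6, the 250 bases before each annotated start) were matched for 6 of the 7 genes, all but Gabrd. The windows of the 2 genes that were lower in N40K are printed so that the sequences before their starts can be set side by side. The motifs searched, none of which overlaps another here, were, on both strands, the TATA box TATAAA, the cAMP response element TGACGTCA, the EGR site GCGTGGGCG and the core of the NRF-1 site, CGCATGCG. Capitals mark a match.
Gabra3 has 2 RefSeq windows that overlap, and the one that starts farther upstream in the gene is shown.
Gabra2, chr5:71095850-71096099, minus strand: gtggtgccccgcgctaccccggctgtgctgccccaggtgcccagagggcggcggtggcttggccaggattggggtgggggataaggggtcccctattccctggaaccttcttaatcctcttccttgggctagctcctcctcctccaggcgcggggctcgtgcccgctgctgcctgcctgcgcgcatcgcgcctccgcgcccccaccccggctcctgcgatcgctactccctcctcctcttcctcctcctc
Gabra3, chrX:72656920-72657169, minus strand: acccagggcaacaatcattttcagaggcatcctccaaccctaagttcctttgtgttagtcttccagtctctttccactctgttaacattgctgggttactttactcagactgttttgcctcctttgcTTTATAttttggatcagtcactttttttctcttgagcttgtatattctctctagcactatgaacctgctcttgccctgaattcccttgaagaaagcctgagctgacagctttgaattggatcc
The Gabra2 window was 70.0% G and C with 18 CpG dinucleotides and held none of the 4 motifs, while the Gabra3 window shown was 42.4% G and C with 0 CpG and held TATAAA on the opposite strand, beginning 123 bases before the start. The other Gabra3 window was 39.2% G and C with 0 CpG and held the same match, beginning 235 bases before its start. Over all 32851 windows the median was 52.4% G and C with 6 CpG, and 12.4% held TATAAA, 1.55% TGACGTCA, 0.536% GCGTGGGCG and 1.55% CGCATGCG. A match describes the letters in the window and is not evidence that a factor binds there.

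Neither Gabra4 nor Gabra5 was called at a single age. Gabra4, the alpha subunit that pairs with delta, measured 24.7, 25.5 and 25.0 FPKM in wild type and 22.7, 23.4 and 21.9 FPKM in N40K at 3 months, without overlap. At 12 months it measured 24.8, 23.3 and 22.6 FPKM in wild type and 24.0, 22.4 and 22.2 FPKM in N40K, and the groups overlapped. Its differences of -0.14 ± 0.05 at 3 months (limma adjusted p = 0.0771), -0.04 ± 0.05 at 12 months (0.548) and -0.09 ± 0.03 over both ages (0.0624) were not called. The average was called after median-ratio scaling (-0.11, limma adjusted p = 0.0432), after a trend with transcript length was removed (-0.11, 0.0362), and without wild type replicate 3 (0.0448) or N40K replicate 1 (0.0429) at 12 months. At 3 months Gabra4 was called after median-ratio scaling (-0.17, limma adjusted p = 0.0498).

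Gabra5 measured 69.9, 75.4 and 65.2 FPKM in wild type and 58.9, 62.7 and 63.4 FPKM in N40K at 3 months, again without overlap. At 12 months its wild type libraries were at 64.1, 75.5 and 68.0 FPKM and its N40K libraries at 65.1, 61.6 and 61.6 FPKM, and 1 N40K library lay within the wild type range. Neither age alone gave a call, with differences of -0.18 ± 0.07 (limma adjusted p = 0.105) and -0.14 ± 0.07 (0.169). Averaged over both ages Gabra5 was lower by -0.16 ± 0.05 (limma adjusted p = 0.0275), which made it the third of the 7 genes called lower in that comparison, beside a background of 9.54% of all genes lower and 25.0% in either direction. That call ended without any of 5 libraries, wild type replicates 1 and 2 and N40K replicate 1 at 3 months and N40K replicates 2 and 3 at 12 months (limma adjusted p of 0.0515 to 0.0662), with no filter on low values (0.0567) and among libraries with Ddx3y (0.101). At 3 months Gabra5 was called without wild type replicate 2 of 12 months (limma adjusted p = 0.0452). Gabra4 shares 28 bases of exon with Gabrb1 and Gabra5 shares 148 bases with Gm9962 in the GENCODE M21 annotation, and since counting by strand is not given in the sources used here, reads in those stretches cannot be assigned.

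The beta and delta subunit genes were not called between the genotypes. The differences at 3 and 12 months were 0.07 ± 0.10 and 0.11 ± 0.10 for Gabrb1, -0.10 ± 0.05 and 0.03 ± 0.05 for Gabrb2, and 0.11 ± 0.12 and 0.16 ± 0.12 for Gabrd, with limma adjusted p-values between 0.207 and 0.707. Their 95% intervals reached from -0.15 to 0.43 on the log2 scale for Gabrd, the widest of the 3, so the libraries leave room for a higher level of that size in N40K. At 3 months the groups did not overlap for 4 of the 7 genes (Gabra2, Gabra3, Gabra4 and Gabra5, all lower in N40K), where 11.5% of all genes tested were lower without overlap and 31.9% did not overlap in either direction. At 12 months this held for Gabra2 and Gabra3, beside 17.5% and 38.8% of all genes.

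Whether the genotype difference changed with age was tested directly as the interaction. By limma, 0 of the 7 genes were called and 0 had an unadjusted p under 0.05, where 0.0645% of all genes were called. The interaction was -0.12 ± 0.12 for Gabra2 (limma adjusted p = 0.679) and 0.03 ± 0.23 for Gabra3 (0.968), with 95% intervals of -0.39 to 0.15 and -0.48 to 0.53. These intervals are as wide as the differences themselves, so the libraries do not show whether either gene differs between genotypes by the same amount at both ages.

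**Figure D2:**
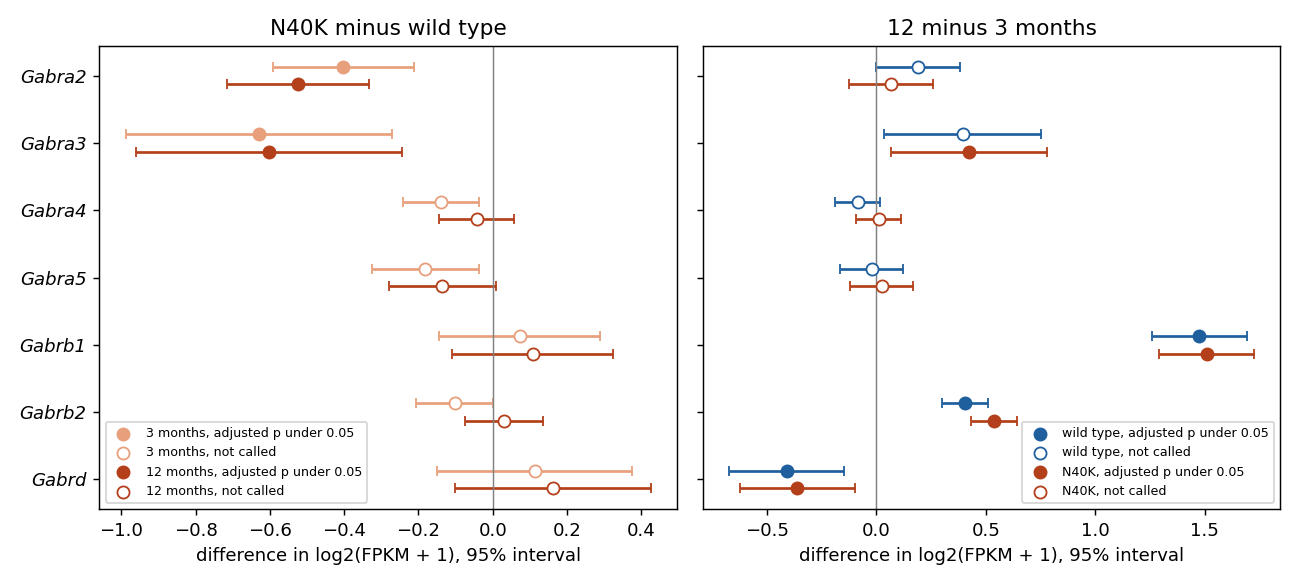
Differences in log2(FPKM + 1) for each gene (horizontal axes) with 95% intervals, N40K minus wild type at each age on the left and 12 minus 3 months in each genotype on the right. Filled points have a limma adjusted p under 0.05. Genotype calls fell on Gabra2 and Gabra3, and the largest age differences were those of Gabrb1, at 1.47 and 1.51.

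The age comparisons called Gabrb1, Gabrb2 and Gabrd in both genotypes. In wild type, 2 of the 7 genes rose with age (Gabrb1 and Gabrb2) and 1 fell (Gabrd), and in N40K 3 rose (Gabrb1, Gabrb2 and Gabra3) and 1 fell (Gabrd). Across all genes tested, 12.6% rose and 29.0% fell in wild type (41.6% in all), and 15.1% rose and 36.5% fell in N40K (51.6% in all), so falling genes outnumbered rising ones. The share of rising genes among those called was 30.3% in wild type and 29.3% in N40K, and 50.7% and 51.6% after median-ratio scaling. The median of all genes was -0.08 in wild type and -0.10 in N40K, while the median of the 7 genes was 0.19 and 0.07. The age comparisons use the same libraries as the genotype comparisons, so their values are not separate evidence for one another.

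Gabrb1 encodes the beta-1 subunit. It was at 4.31, 5.07 and 4.37 FPKM in wild type and 4.83, 5.03 and 4.72 FPKM in N40K at 3 months. At 12 months it was at 12.0, 15.9 and 16.0 FPKM in wild type and 15.6, 14.5 and 17.0 FPKM in N40K. The lowest 12-month library lay above every 3-month library, whatever the genotype. The means differed 3.19-fold in wild type and 3.23-fold in N40K, with log2 differences of 1.47 ± 0.10 (limma adjusted p = 2.91e-06) and 1.51 ± 0.10 (limma adjusted p = 1.42e-06). The longest protein-coding Gabrb1 transcript in GENCODE M21, of 13737 bases, is long beside the median of 3095 bases over the tested genes. The length by which the deposited values were scaled is not known. Once a trend with the GENCODE length was removed from each library, the differences were 1.11 and 1.01, both still called. Among the libraries with Ddx3y they were 1.54 and 1.49, and called. The part of transcript length in the rest of the difference was not tested.

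Gabrb2 encodes the beta-2 subunit, which is part of the commonest receptor of the adult brain. Its 3-month levels were 20.4, 20.4 and 19.0 FPKM in wild type and 19.2, 18.1 and 18.1 FPKM in N40K. Its 12-month levels were 26.0, 28.4 and 25.7 FPKM in wild type and 27.7, 26.6 and 27.6 FPKM in N40K. The ages did not overlap in either genotype. The rise was 1.34-fold in wild type (log2 difference 0.41 ± 0.05, limma adjusted p = 1.13e-04) and 1.48-fold in N40K (0.54 ± 0.05, limma adjusted p = 1.04e-05). Among the libraries with Ddx3y the differences were 0.37 and 0.52 (limma adjusted p = 0.012 and 5.14e-04).

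The windows of these 2 beta subunit genes are printed because both rose with age and each has a motif close to its start. Gabrb1 has 2 RefSeq windows and Gabrb2 has 3, and the window with the match nearest the start is shown for each, so the choice rests on the match.
Gabrb1, chr5:71699682-71699931, plus strand: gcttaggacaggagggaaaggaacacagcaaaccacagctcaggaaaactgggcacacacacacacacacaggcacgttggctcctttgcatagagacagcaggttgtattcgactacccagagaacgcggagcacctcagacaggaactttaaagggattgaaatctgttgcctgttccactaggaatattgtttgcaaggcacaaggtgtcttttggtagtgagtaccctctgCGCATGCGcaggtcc
Gabrb2, chr11:42420190-42420439, plus strand: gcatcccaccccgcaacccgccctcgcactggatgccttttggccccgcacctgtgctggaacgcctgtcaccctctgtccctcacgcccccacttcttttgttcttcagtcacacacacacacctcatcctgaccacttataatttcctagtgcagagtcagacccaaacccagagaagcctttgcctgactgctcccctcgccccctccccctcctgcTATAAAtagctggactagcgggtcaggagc
The Gabrb1 window held the NRF-1 core, beginning 15 bases before the start, and also overlapped an exon of Gm38562. The Gabrb2 window held TATAAA, beginning 30 bases before the start. The motif in capitals differs between the 2 windows, and neither motif was found in the window printed for the other gene.

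Gabrd, the delta subunit gene of receptors outside synapses, moved the other way. It measured 18.1, 13.4 and 15.3 FPKM in wild type and 15.9, 18.2 and 16.4 FPKM in N40K at 3 months. At 12 months it measured 13.8, 9.96 and 10.8 FPKM in wild type and 13.8, 13.2 and 11.7 FPKM in N40K. The ages overlapped in wild type, through wild type replicate 1 at 12 months and replicate 2 at 3 months, and did not overlap in N40K. Gabrd fell by 26.1% with age in wild type (log2 difference -0.41 ± 0.12, limma adjusted p = 0.0179) and by 23.3% in N40K (-0.36 ± 0.12, limma adjusted p = 0.026).

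Each of the Gabrd calls, in wild type and in N40K, ended in 5 of 12 other settings, with the same direction throughout. Among these were no filter on low values (limma adjusted p = 0.0529 and 0.0695) and median-ratio scaling (-0.34 and -0.26, limma adjusted p = 0.0549 and 0.118). Removal of the transcript length trend (-0.26 and -0.15) and of the GC trend (-0.23 and -0.13) were also among these. Among the libraries with Ddx3y the differences were -0.62 and -0.38, and called (limma adjusted p = 0.0308 and 0.0421). Gabrd also lost its call in wild type without wild type replicate 1 at 3 months (-0.30, limma adjusted p = 0.0745) or without wild type replicate 2 or 3 at 12 months (-0.32 and -0.37), and in N40K without N40K replicate 2 at 3 months (-0.31, 0.089) or N40K replicate 3 at 12 months (-0.30, 0.0896). At 1921 bases and 56.8% G and C, the Gabrd transcript used for length was the shortest and the richest in G and C of the 7.

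The alpha subunit genes differed little or less firmly with age. Gabra3 was higher at 12 months in both genotypes, by 0.40 ± 0.16 in wild type (limma adjusted p = 0.0721) and 0.42 ± 0.16 in N40K (limma adjusted p = 0.0477), and of these the second was called. That call ended in 10 of 12 fits with 1 library left out and in 5 of 12 other settings (limma adjusted p up to 0.117). The wild type difference was called in 4 of 12 other settings and in 2 of 12 fits with 1 library left out. Without N40K replicate 2 at 3 months the Gabra3 difference was 0.20 (limma adjusted p = 0.163). In wild type the ages did not overlap for Gabra3, and in N40K they did. Gabra2 differed by 0.19 ± 0.09 and 0.07 ± 0.09 in wild type and N40K, and Gabra4 by -0.08 ± 0.05 and 0.01 ± 0.05. Gabra5 differed by -0.02 ± 0.07 and 0.03 ± 0.07, and none of these differences was called. In other fits the Gabra2 difference in wild type was called in 2 of 12 other settings and in 2 of 12 with 1 library left out. The Gabra5 difference in N40K was called in 1 of 12 other settings. In all, 3 of the 7 genes did not overlap between the ages in wild type and 3 in N40K, beside 50.3% and 62.8% of all genes tested.

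Markers of other cells moved with age as well. Of 12 interneuron markers, 4 rose in wild type (Gad1, Gad2, Lhx6 and Reln) and 4 in N40K (Gad1, Gad2, Reln and Vip). The number depended on the processing: with Xist as a covariate 1 rose in wild type and 4 in N40K, and without a GC trend 7 and 8. In either genotype 6 of 9 oligodendrocyte markers fell. Across all genes tested, 12.6% rose and 29.0% fell in wild type, and 15.1% rose and 36.5% fell in N40K. The interneuron markers summed to 702 to 775 FPKM in wild type and 749 to 912 in N40K at 3 months, and to 811 to 946 and 791 to 840 at 12 months. The oligodendrocyte markers summed to 1866 to 2268 and 1652 to 2167 FPKM at 3 months, and to 1649 to 1790 and 1482 to 1576 at 12 months. Of 10 dentate granule markers, 2 rose (Calb1 and Prox1) and 1 fell (Sema5b) in wild type, and 1 rose (Prox1) and 5 fell (C1ql2, Il16, Rasl10a, Sema5b and Tdo2) in N40K, and they summed to 141 to 161 FPKM in wild type and 160.0 to 197 in N40K at 3 months, and to 155 to 171 and 144 to 154 at 12 months. None of the listed genes of these 3 cell types was at 0 in every library, and the part of these changes in the age differences of Gabrb1, Gabrb2 and Gabrd was not tested.

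Between the genotypes, by limma 0 of 12 interneuron markers were called at 3 months (2 at an unadjusted p under 0.05), at 12 months (1) or over both ages (1). Of 12 pyramidal markers, 1 was higher at 3 months, and 1 was higher and 2 lower at 12 months. Over both ages 2 were higher (Bok and Wfs1) and 2 lower (Neurod6 and Slc17a7), beside 15.5% and 9.54% of all genes. Across all genes tested, 7.95% were higher and 3.49% lower at 3 months, and 11.2% and 7.71% at 12 months. The summed pyramidal level was 856 to 960 FPKM in wild type and 759 to 793 in N40K at 12 months, without overlap. At 3 months it was 911 to 1017 and 934 to 997 FPKM, and the groups overlapped. Of 10 dentate granule markers, 2 were higher at 3 months, 1 was lower at 12 months and 1 (Tdo2) was higher over both ages. Of 9 oligodendrocyte markers, by limma 0 were called at 3 months (3 at an unadjusted p under 0.05) and 0 at 12 months (2), and Mal and Mobp were lower over both ages. The median difference of the 9 was -0.17, -0.16 and -0.16 in those comparisons, and their summed levels did not overlap at 12 months. The part of these markers in the lower Gabra2 and Gabra3 of N40K hippocampus was not tested.

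The proportions of the subunits within each library were described without a test. The 7 genes summed to 168.5 ± 8.07 FPKM in wild type and 147.7 ± 0.658 in N40K at 3 months, and to 186.3 ± 9.88 and 168.5 ± 3.83 at 12 months (mean ± SD, n = 3). Gabra5 held 54.6% of the summed level of the 4 alpha genes in wild type and 57.4% in N40K at 3 months, and 51.8% and 55.7% at 12 months. The share of Gabra2 was 15.0% and 13.4% at 3 months, and 16.6% and 13.4% at 12 months. Gabra3 held 10.8% and 8.18%, and then 13.9% and 10.6%.

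The ratio of Gabra5 to Gabra2 was 3.64 ± 0.267 in wild type and 4.32 ± 0.532 in N40K at 3 months, where the groups overlapped. At 12 months it was 3.13 ± 0.148 and 4.17 ± 0.141, and every N40K library (from 4.03) exceeded every wild type library (up to 3.22). Gabrb2 exceeded Gabrb1 by 4.37 ± 0.347 times in wild type and 3.81 ± 0.192 times in N40K at 3 months, and by 1.86 ± 0.287 and 1.74 ± 0.109 times at 12 months. The ratio of Gabrd to Gabra4, its partner, was 0.623 ± 0.104 and 0.743 ± 0.0371 at 3 months, and 0.487 ± 0.0651 and 0.565 ± 0.0329 at 12 months. These ratios restate the levels and were not tested.

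**Figure D3:**
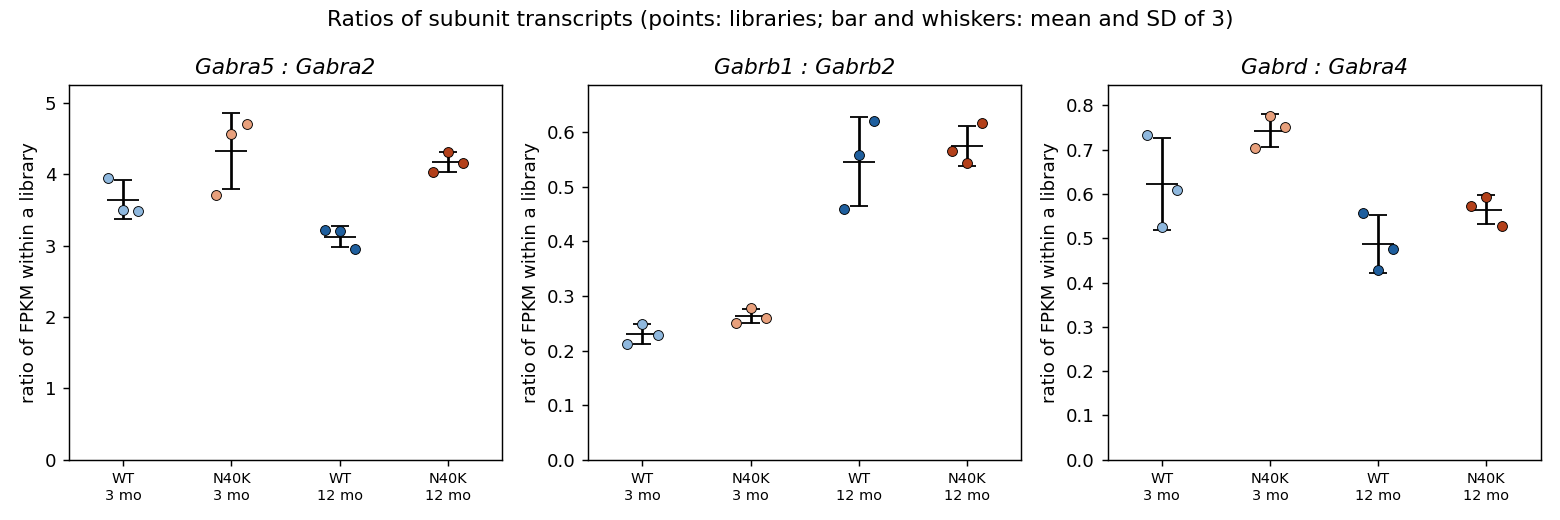
Ratios of FPKM between subunit genes within a library (vertical axes, from 0) by group, with libraries as points, the mean of 3 as a bar and the SD as whiskers. Gabra5 to Gabra2 was higher in N40K, without overlap at 12 months, and Gabrb1 to Gabrb2 rose from 0.23 and 0.263 at 3 months to 0.546 and 0.575 at 12 months in wild type and N40K.

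The levels of Gabra2 and Gabra3 varied together over the 12 libraries once the mean of each age was subtracted, with a Pearson r of 0.86, a value that includes the genotype difference of both. The other tested genes most like Gabra2 by the same measure were Pds5b (r = 0.987) and Armcx3 (0.980), and those most like Gabra3 were Ptprn2 (0.984) and Chga (0.977). Gabra5 was closest to Nell2 (0.948) and Kcnv1 (0.947), Gabra4 to Ipcef1 (0.899) and Ppp3cc (0.888), and Gabrd to Rph3a (0.951) and Osbp2 (0.939). Gabrb1 was closest to Xkr4 (0.926) and Dmxl1 (0.914), and Gabrb2 to Osgepl1 (0.899). These libraries share genotype groups and the values describe them only.

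Of 12 other subunit genes listed, 5 passed the filter on low values and 7 were not tested. By limma, 0 of the 5 were called between genotypes at 3 months, at 12 months or over both ages, with 0 at an unadjusted p under 0.05. With no filter 1 of the 12 was called higher at 3 months and over both ages, and after quantile normalization 1 of the 5 was called higher at 12 months. Among them Gabrg3, a gamma subunit gene picked out after its values were seen, rose with age in both genotypes: it went from 0.695 ± 0.0693 to 2.05 ± 0.239 FPKM in wild type and from 0.72 ± 0.156 to 2.29 ± 0.147 in N40K (mean ± SD, n = 3, log2 differences 0.84 ± 0.08 and 0.94 ± 0.08, limma adjusted p = 4.11e-05 and 1.13e-05).

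Genes that bring the receptor to the membrane and anchor it changed in both directions. Of 25 listed, all tested, 3 were higher and 6 lower in N40K over both ages, against 15.5% and 9.54% of all genes. At 3 months 2 were higher and 3 lower, and at 12 months 3 were higher and 5 lower. Trak2, an adaptor for transport along microtubules, measured 23.5 FPKM in N40K against 32.1 in wild type at 3 months, and 27.7 against 35.6 at 12 months (average log2 difference -0.39 ± 0.02, limma adjusted p = 1.81e-06). Shisa7, an auxiliary subunit of GABA-A receptors, was higher instead, at 45.9 against 30.5 FPKM at 3 months and 45.4 against 30.4 at 12 months (0.57 ± 0.04, limma adjusted p = 3.33e-06).

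Gphn, encoding gephyrin, the scaffold of inhibitory synapses to which alpha-2 receptors are anchored, was at 22.9 ± 0.801 FPKM in N40K against 27.1 ± 1.04 in wild type at 3 months, and at 22.1 ± 0.42 against 25.8 ± 0.739 at 12 months. Its average log2 difference was -0.22 ± 0.03 (limma adjusted p = 3.06e-04). Mdga1, a membrane protein that binds neuroligin-2 and limits inhibitory synapses, was lower by -0.32 ± 0.03 (limma adjusted p = 6.01e-05), and Nsf, the ATPase that recycles membrane fusion complexes, by -0.18 ± 0.03 (0.00136). Slitrk3, a synaptic adhesion protein of inhibitory synapses, was higher by 0.25 ± 0.04 (limma adjusted p = 0.00155). For each of these 6 genes the average over both ages was called in all 24 fits, and the direction was the same in all of them.

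**Figure D4:**
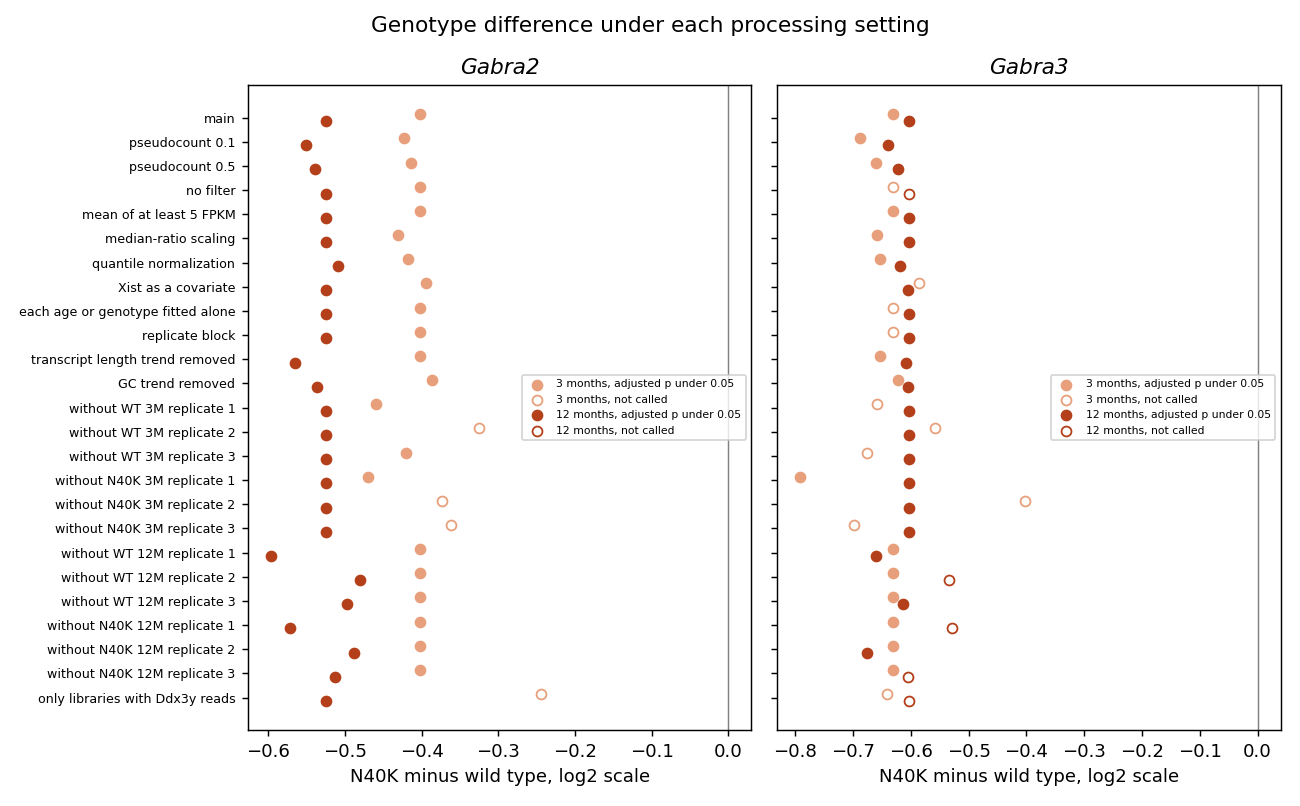
Genotype difference of Gabra2 (left) and Gabra3 (right) on the log2 scale (horizontal axes) under each processing setting and with each library left out (rows), for 3 and 12 months. Filled points have a limma adjusted p under 0.05. Both genes were lower in N40K in every row, Gabra2 at 12 months was called in every row, and the 3-month values reached -0.24 for Gabra2 among libraries with Ddx3y and -0.40 for Gabra3 without N40K replicate 2.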

How the data were processed

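Poly-A RNA of mouse hippocampus was sequenced as paired reads of 100 bases from TruSeq libraries, per the labels' protocols. The authors deposited 1 table of FPKM values for 12 libraries. The build mm9 and the tools BWA, CASAVA and STAR come from the submitters' processing notes, which give them no roles. The counting tool, annotation and use of strand are not given in the sources used here. Between 57.1% and 77.0% of low values came out as whole reads (within 0.02 reads), too few for a test on counts.

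The values were tested as log2(FPKM + 1) with limma 3.58.1 (R 4.3.3; group means of the 4 groups, empirical Bayes with a mean trend, two-sided, Benjamini-Hochberg over the 13945 genes tested, threshold 0.05). The script was tested on simulated data. Within groups, libraries correlated at r of 0.988 to 0.997, and at most 0.0159% of values were identical in a pair. Alternatives were other pseudocounts (0.1, 0.5), no filter or a mean of 5 FPKM, median-ratio and quantile scaling, Xist as a covariate, fits of each age or genotype alone, a replicate block, removal of transcript length or GC trends (lowess span 0.3, GENCODE M21 lengths for 93.6% of the genes), and each library left out. The length and GC of a gene were those of its longest GENCODE M21 transcript, protein-coding where it had one. A fit on the 9 libraries with at least 1 FPKM of Ddx3y was added after seeing the data. The members and gene lists were chosen with earlier results of these data known.

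Named genes are the 7 subunit genes, up to 6 per other list that were called in a genotype comparison (by adjusted p over both ages), and for each of the 7 the 2 tested genes with the highest Pearson r; some genes of the lists are not reported here.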

Additional observations from a re-analysis of the deposited data

How the results depend on the processing

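Of 490 comparisons of a subunit gene with its reported value under another setting, 442 kept their direction and their side of the threshold, 25 lost and 10 gained a call, and 13 changed sign. With 1 library left out, these counts were 448, 31, 7 and 18 of 504. No value that changed sign was called. The number of subunits called at 3 months, 2, became 1 with no filter, with Xist as a covariate, with each age fitted alone and with the replicate block, 0 among libraries with Ddx3y, and 0 to 3 with 1 library left out. At 12 months it went from 2 to 1 with no filter and among libraries with Ddx3y, and to 1 to 2 with 1 library left out. After median-ratio scaling it was 3 at 3 months, with Gabra4 added. With age in wild type it went from 3 to 5 after quantile normalization and to 2 with no filter or without a GC trend, and it was 2 to 4 with 1 library left out. With age in N40K it went from 4 to 2 with no filter or without a GC trend, and to 2 to 4 with 1 library left out. Fits of 1 age alone give no average over ages and no interaction.

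Replicate numbers did not pair the libraries: the 6 same-numbered pairs of wild type and N40K correlated at -0.46 to 0.20, and 1 exceeded 0.1. With the replicate block the counts were 1 at 3 months (Gabra3 adjusted p = 0.057), 2 at 12 months and 3 with age in N40K.

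The signs that changed were those of small differences, and the cause was not tested. Among libraries with Ddx3y, Gabrd differed by -0.082 at 3 months, the Gabrb1 interaction was -0.051 and the age difference of Gabra4 in N40K was -0.013. Without the transcript length trend, Gabrb1 differed by -0.031 at 12 months with an interaction of -0.10, Gabra5 by 0.095 with age in wild type, and Gabra2 by -0.016 with age in N40K. Without the GC trend, Gabra2 and Gabra4 differed by -0.019 and -0.032 with age in N40K. With Xist as a covariate the Gabra3 interaction was -0.018 and the age difference of Gabra5 in wild type 0.0027, and the latter was 0.056 after median-ratio scaling and 0.066 after quantile normalization.

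With 1 library left out, the Gabrb1 difference at 12 months ranged from -0.020 to 0.17. The interactions ranged from -0.20 to 0.19 for Gabra3, -0.0069 to 0.11 for Gabra5, -0.093 to 0.10 for Gabrb1 and -0.057 to 0.18 for Gabrd. The age differences ranged from -0.084 to 0.032 for Gabra5 in wild type, and in N40K from -0.023 to 0.035 for Gabra4 and -0.0072 to 0.046 for Gabra5.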

Other observations

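The response to GABA also depends on the chloride gradient, which transporters set. Of 8 listed genes of chloride transport and its control, 0 were called between genotypes by limma at 3 months (2 at an unadjusted p under 0.05) or at 12 months (1), and 1 was lower over both ages. That gene was Slc12a2, which encodes the chloride importer NKCC1. It was at 15.4 ± 4.52 FPKM in wild type and 10.9 ± 0.851 in N40K at 3 months, and at 16.1 ± 1.55 and 12.7 ± 2.54 at 12 months (mean ± SD, n = 3). The average log2 difference was -0.38 ± 0.12 (limma adjusted p = 0.0399), and it was called in 12 of 24 fits. Slc12a2 is also abundant in choroid plexus, whose markers varied between the libraries, and the part of that tissue in the difference was not tested. Slc12a5, which encodes the neuronal exporter KCC2, was at 73.4 ± 2.62 and 78.9 ± 3.62 FPKM at 3 months and at 73.1 ± 6.42 and 81.0 ± 3.43 at 12 months, an average difference of 0.13 ± 0.04 that was not called (limma adjusted p = 0.0602).

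With age, Wnk1 and Wnk3 of this list rose and Clcn2 fell in both genotypes, genes named after their values were seen. Wnk3, a kinase that controls chloride transporters, went from 2.05 to 3.69 FPKM in wild type and from 1.87 to 3.58 in N40K (log2 differences 0.62 ± 0.06 and 0.68 ± 0.06, limma adjusted p = 2.16e-05 and 6.34e-06). Clcn2, a chloride channel gene, went from 32.9 to 23.8 FPKM in wild type and from 28.4 to 22.8 in N40K (-0.46 ± 0.07 and -0.30 ± 0.07, limma adjusted p = 7.66e-04 and 0.00571). The fall of Clcn2 in N40K was not called after median-ratio scaling, after quantile normalization or without a transcript length or GC trend.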
